A study of Mus musculus with 19 samples.

Results

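The genes described here encode the proteins of the cytosolic ribosome. They were taken from a mouse liver RNA-seq count table by symbol: Rpl or Rps followed by a number and, at most, a letter and a digit, together with Rplp0, Rplp1, Rplp2 and Rpsa, with at least 200 counts over all 19 libraries and without the Rps6k kinases. Of 24421 gene symbols, 84 had such a name and 80 also had the counts. Of these 80 genes, 42 encode large subunit proteins, 31 small subunit proteins, 3 the P stalk and 4 are paralogs (Rpl22l1, Rpl7l1, Rps27l and Rps4l). All 80 passed the filter on low counts and were among the 13293 genes tested. The 4 symbols that were too low were Rpl3l with 77 counts, Rpl26 with 2, and Rpl10l and Rpl39l with 0; the lowest that were kept were Rpl30 with 399, Rpl34 with 585 and Rps27 with 595. Fau, which encodes a small subunit protein fused to a ubiquitin-like protein, lies outside these symbols and is described with the translation factors.

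The libraries come from whole liver of mice on a purified normal diet. Over 3 weeks, 2 injections a week had delivered an antisense oligonucleotide, or ASO, a synthetic strand that pairs with a chosen RNA and lowers it, which was either the PLIN5 ASO, directed against Plin5, the gene of the lipid droplet coat protein perilipin 5, or the control ASO. Mice were then fasted overnight and killed, or were given food again for 4 h first. The groups were re-fed PLIN5 ASO (n = 5), re-fed control ASO (n = 5), fasted PLIN5 ASO (n = 5) and fasted control ASO (n = 4, numbered 1, 3, 4 and 5). Strain, sex and age are not stated in the labels, and neither is whether each library is 1 mouse, so the tests measure the spread between libraries.

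The ribosome has a large subunit, which joins amino acids and holds the exit tunnel, and a small subunit, which binds and decodes the mRNA. The P stalk of the large subunit, made of Rplp0 and pairs of Rplp1 and Rplp2, recruits the GTPases of translation. In vertebrates the mRNAs of ribosomal proteins start with a C followed by an unbroken run of pyrimidines, the 5′ terminal oligopyrimidine (TOP) motif, through which mTORC1, a kinase complex activated by amino acids and insulin, controls their translation together with the RNA-binding protein LARP1. In liver, which loses protein and ribosomes in a fast and regains them after a meal, this control acts mainly on translation, so mRNA levels measured here do not report it.

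The start regions of 10 genes are shown as a description. Of these, 7 were called higher in re-fed PLIN5 ASO liver whichever library was left out. The others are the paralogs Rpl22 and Rpl22l1, whose values are set side by side below, and Rps6, the substrate of S6 kinase. Rpl22 was called higher there too, in 16 of the 19 fits that left out 1 library. Each line gives 50 bases of the sense strand of GRCm38.p6, 25 before and 25 from the transcript start on, taken from RefSeq; capitals mark the longest unbroken run of C and T. Where RefSeq lists several starts, the one with the longest run is shown, and for Rpl22 both are.
Rpl15 (chr14:18270962-18271011, minus strand): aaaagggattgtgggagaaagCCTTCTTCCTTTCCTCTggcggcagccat
Rpl31 (chr1:39367826-39367875, plus strand): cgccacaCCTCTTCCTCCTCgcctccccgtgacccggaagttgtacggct
Rpl35 (chr2:39005107-39005156, minus strand): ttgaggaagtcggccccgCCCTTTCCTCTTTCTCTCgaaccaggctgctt
Rpl35a (chr16:33056457-33056506, plus strand): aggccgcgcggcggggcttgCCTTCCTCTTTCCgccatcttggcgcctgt
Rps18 (chr17:33955641-33955690, minus strand): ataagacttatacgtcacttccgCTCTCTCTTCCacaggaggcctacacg
Rps24 (chr14:24490653-24490702, plus strand): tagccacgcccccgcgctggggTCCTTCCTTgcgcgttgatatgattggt
Rps25 (chr9:44407689-44407738, plus strand): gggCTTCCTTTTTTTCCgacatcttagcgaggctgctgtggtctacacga
Rps6 (chr4:86857343-86857392, minus strand): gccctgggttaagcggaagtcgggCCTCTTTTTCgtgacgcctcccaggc
Rpl22l1 (chr3:28805483-28805532, plus strand): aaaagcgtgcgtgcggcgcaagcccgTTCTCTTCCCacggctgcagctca
Rpl22, start 1 (chr4:152325701-152325750, plus strand): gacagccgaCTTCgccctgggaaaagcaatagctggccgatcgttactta
Rpl22, start 2 (chr4:152324411-152324460, plus strand): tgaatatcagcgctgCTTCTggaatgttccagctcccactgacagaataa
The run holds 18 bases in Rpl35, 17 in Rpl15, 14 in Rps25, 13 in Rpl31 and in Rpl35a, 11 in Rps18, 10 in Rps6, 10 in Rpl22l1 and 9 in Rps24, but 4 and 5 at the starts of Rpl22. A start was listed for 59 of the 80 genes. A run of at least 8 C or T bases lay in this window in 32 of the 59 (54.2%) and in 22.7% of the 10050 other tested genes with a start. The sense-strand letters CTCTTT, which can lie inside such a run, were found in 15.3% and 2% of them, and CTTCCG on either strand, the core of ETS factor sites, in 27.1% and 12.8%. A match is a description of the letters only.

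Per length, the most abundant of these mRNAs were Rps15 with a mean of 586 FPKM (fragments scaled to transcript length and library size) over the 19 libraries, Rpl32 with 539 and Rps26 with 516, and the median gene had 164 FPKM. In CPM, counts divided by scaled library sizes, which is the scale of all levels that follow unless FPKM is named, the median gene had 103 and 7 genes were under 10: Rpl30, Rpl34, Rps27, Rps23, Rpl17, Rps27a and Rpl23a. The deposited FPKM of these 7 did not follow the same order. Rpl30, with a mean of 0.671 CPM, was at 15.1 to 48.2 FPKM. Rpl34, with a mean of 0.995 CPM, had a mean of 16.1 FPKM, and Rpl17, with 1.95 CPM, had 0.857 FPKM. Rpl26, left out with 2 counts, had a mean of 5.81 FPKM. The cause of this gap was not tested. Ribosomal protein genes have many processed pseudogenes: 78 of the 80 shared at least 1 stretch of 50 bases with an annotated pseudogene, and the share of 50-base stretches found in no other annotated gene was 1.35% in Rps27, 4.91% in Rpl35, 39.8% in the median gene and 95.5% in Rps3. The sources used here do not say how reads matching several genes were treated, so levels of single members are uncertain, and the part of shared sequence in the low counts was not tested. Across the 80 genes the Spearman correlation of the unique share with the mean CPM was 0.25, given as a description.

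The libraries held 24942147 to 33949977 counts, except re-fed PLIN5 ASO 5 with 66862784. Plin5 itself was at 3.91 to 13.1 CPM in the 10 PLIN5 ASO libraries and at 27.3 to 51.8 CPM in the 9 control ASO libraries, without overlap. The hepatocyte markers on the list that were in the table summed to between 84500 and 147000 CPM in every library, although 1 of the 7, Ass1, averaged only 0.629 to 1.29 CPM by group. The clock gene Arntl was at 14.6 to 45.0 CPM in libraries 3 and 5 of the fasted PLIN5 ASO and of the re-fed control ASO groups, and at 0.566 to 4.87 CPM elsewhere; results without these 4 clock-shifted libraries are given where they differ. Fasted control ASO 3 and 4 were the closest pair of libraries, with a chi-square of 3.28 per degree of freedom against 19.5 for the next pair, so they still differed by more than sampling noise. The re-fed control ASO libraries stood apart in the balance of long and short transcripts: tested genes over 5000 nt minus other genes up to 1000 nt, as median log2 deviations from the mean library, came to 0.07 to 0.26 there, against -0.31 to 0.02 in re-fed PLIN5 ASO, -0.12 to 0.06 in fasted PLIN5 ASO and -0.10 to 0.01 in fasted control ASO.

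In re-fed liver, 32 of the 80 ribosomal protein genes were higher with PLIN5 ASO than with control ASO and none was lower (edgeR quasi-likelihood test, Benjamini-Hochberg adjusted p under 0.05 over all genes tested). Among all genes tested 1.38% were called in this comparison, 0.812% higher and 0.564% lower. The called genes were spread over both subunits, 18 of 42 in the large and 14 of 31 in the small, while 0 of the 3 stalk genes and 0 of the 4 paralogs were called by edgeR. DESeq2 called Rplp2 of the stalk (adjusted p = 0.0422) and the paralog Rps4l (0.0486). A difference between these classes was not tested. The log2 fold change was positive for 76 of the 80 and its median was 0.32, against -0.01 over all genes tested. In 42 of the 80 the lowest re-fed PLIN5 ASO library was above the highest re-fed control ASO library, which held for 2.48% of all genes; the reverse held for none of the 80 and for 1.74% of all genes. The 80 genes together took 0.947% to 1.11% of all counts in re-fed PLIN5 ASO liver and 0.807% to 0.919% in re-fed control ASO liver, so the ranges did not meet.

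**Figure D1:**
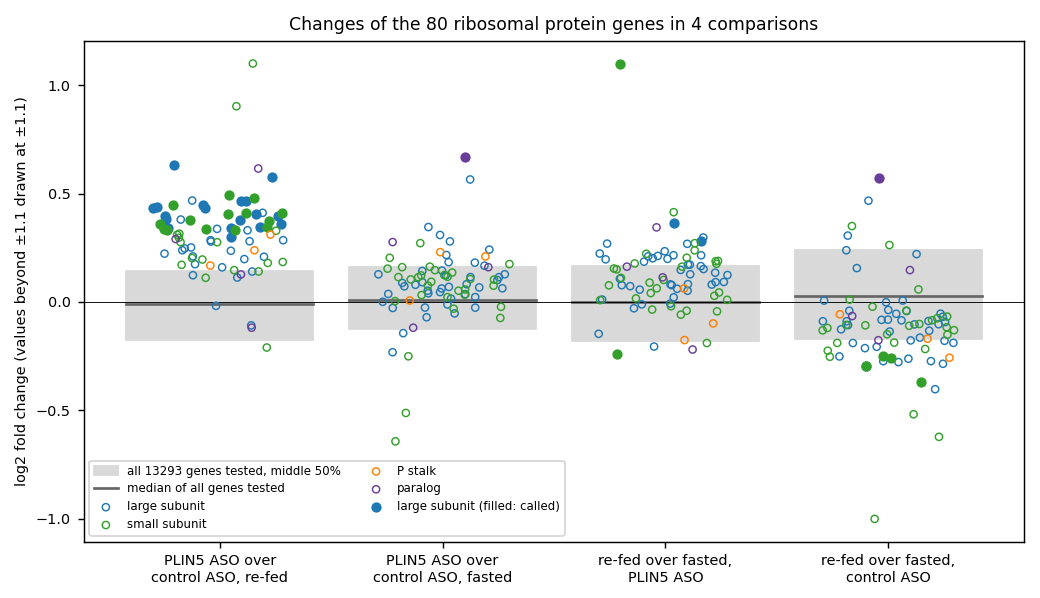
Log2 fold change of each of the 80 ribosomal protein genes (points, coloured by class; filled points were called at an adjusted p under 0.05) in the 4 comparisons, with the middle 50% (grey box) and the median (grey line) of all 13293 genes tested. The points of the re-fed PLIN5 ASO over control ASO comparison lie mostly above the grey box, with 32 filled, while those of the other 3 comparisons lie mostly inside it.

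Rpl15, a large subunit protein, had the largest change among the genes called. It was at 27.9, 18.6, 17.5, 22.5 and 23.8 CPM in re-fed PLIN5 ASO liver, against 13.9, 14.5, 15.7, 14.6 and 12.7 CPM in re-fed control ASO liver. The groups did not overlap and the log2 fold change was 0.63 ± 0.11 (SE; adjusted p = 0.0143). Rpl31, a large subunit protein at the exit of the tunnel, was at 38.2, 47.8, 32.5, 35.6 and 30.1 CPM with PLIN5 ASO and at 21.8, 23.5, 25.5, 27.6 and 24.7 CPM with control ASO. PLIN5 ASO 2 was its highest library, and the log2 fold change was 0.58 ± 0.11 (adjusted p = 0.0166). Rpl35a, a large subunit protein whose gene is mutated in some families with Diamond-Blackfan anaemia in humans, was at 103, 131, 105, 103 and 102 CPM with PLIN5 ASO and at 79.0, 82.0, 79.3, 85.5 and 76.0 CPM with control ASO. Here 4 of the PLIN5 ASO libraries lay within 4 CPM of each other, with library 2 above them (0.44 ± 0.08, adjusted p = 0.0126).

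Among small subunit genes, Rps25, whose protein is needed for translation from several viral internal entry sites, was at 137, 170, 144, 160 and 142 CPM in re-fed PLIN5 ASO liver and at 94.8, 101, 117, 115 and 107 CPM in control ASO liver after re-feeding. All 5 PLIN5 ASO libraries were above all 5 controls (log2 fold change 0.49 ± 0.08, adjusted p = 0.0126). Rps24, another gene of Diamond-Blackfan anaemia in humans, was at 278, 331, 271, 291 and 266 CPM with PLIN5 ASO and at 177, 191, 217, 231 and 215 CPM with control ASO. Its lowest controls were libraries 1 and 2 (0.48 ± 0.08, adjusted p = 0.0126). The remaining genes of both subunits that were called had log2 fold changes of 0.30 to 0.47; in Rpl18, the weakest of the calls, the adjusted p was 0.0485, and in Rpl9, the nearest gene not called, 0.0526.

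Among genes with known roles outside the ribosome, Rpl11 and Rps19 passed the test while Rpl5, Rps6, Rpl13a, Rpl10 and Rpsa did not. Of the pair that forms the 5S ribonucleoprotein and binds Mdm2, Rpl11 rose to a mean of 136 ± 19.5 CPM in re-fed PLIN5 ASO liver, against 107 ± 2.71 CPM in re-fed control ASO liver (SD, n = 5 each; log2 fold change 0.35, adjusted p = 0.0331). Rpl5 had 99.5 ± 5.31 CPM with PLIN5 ASO and 90.2 ± 7.94 CPM with control ASO (0.14, adjusted p = 0.277). Rps19, the first gene linked to Diamond-Blackfan anaemia in humans, rose to 66.9 ± 5.18 CPM with PLIN5 ASO, against 53.0 ± 4.74 CPM with control ASO (0.34, adjusted p = 0.036). Rps6, whose protein is phosphorylated by S6 kinase downstream of mTORC1, was at 112 to 119 CPM with PLIN5 ASO and at 96.5 to 106 CPM with control ASO; the groups did not overlap, but the adjusted p was 0.214. Rpl13a, Rpl10 and Rpsa, the last also known as the laminin receptor, had log2 fold changes of 0.28, 0.22 and 0.18 that did not pass (adjusted p = 0.12, 0.0776 and 0.263), although DESeq2 called Rpl10 (0.0287). The call of Rps19 was lost in 12 of 31 alternatives and that of Rpl11 in 8. With the trend with transcript length taken out their adjusted p was 0.185 and 0.132, and without the clock-shifted libraries it was 0.0935 and 0.103.

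The 3 stalk genes had log2 fold changes of 0.17 (Rplp0), 0.24 (Rplp1) and 0.31 (Rplp2), with adjusted p of 0.293, 0.186 and 0.0865. Only Rplp2 was without overlap, at 117, 143, 112, 110 and 107 CPM in re-fed PLIN5 ASO liver, against 82.1, 91.4, 96.0, 101 and 104 CPM in re-fed control ASO liver. Among the paralogs, Rps4l was at 23.9 to 30.9 CPM with PLIN5 ASO and at 10.6 to 24.8 CPM with control ASO (0.62 ± 0.20, adjusted p = 0.111), and Rps27l and Rpl7l1 had 0.29 and 0.13 (adjusted p = 0.161 and 0.409). The 4 genes with a negative value were Rps27a, Rpl22l1, Rpl17 and Rpl34, none of them called, and of these Rps27a, Rpl17 and Rpl34 are among the 7 genes under 10 CPM.

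**Figure D2:**
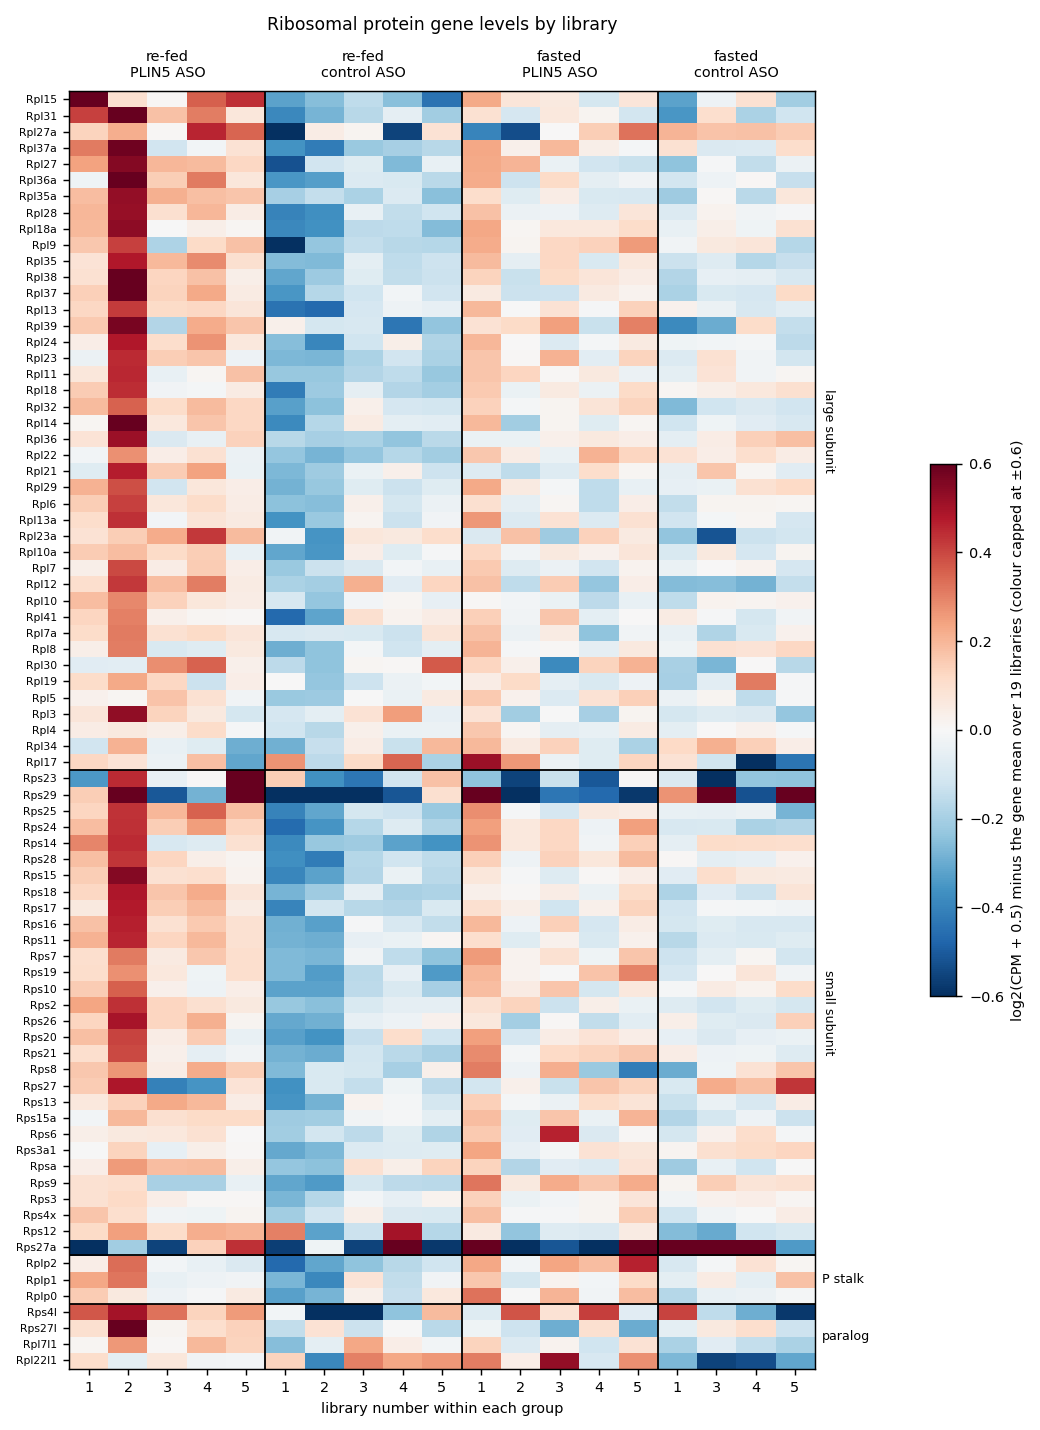
Level of all but 1 of the 80 genes (rows, grouped by class and ordered by their change in re-fed liver) in each of the 19 libraries (columns), as log2(CPM + 0.5) minus the mean of the gene over all libraries; red is above and blue below that mean. Re-fed PLIN5 ASO 2 is the reddest column, re-fed control ASO 1 and 2 are the bluest, and the rows of Rps23, Rps29, Rps27a and Rpl22l1 follow patterns of their own.

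How many genes were called rested on a few libraries. Scored as the median log2 deviation of the 80 genes from their mean over all libraries, the re-fed PLIN5 ASO libraries 1 to 5 stood at 0.12, 0.41, 0.07, 0.12 and 0.05, against -0.29, -0.25, -0.08, -0.09 and -0.11 in the re-fed control ASO libraries. Every re-fed PLIN5 ASO library was above every re-fed control ASO library, and PLIN5 ASO 2 and control ASO 1 and 2 were the farthest from the mean library. Fasted PLIN5 ASO libraries lay at -0.03 to 0.17 and fasted control ASO libraries at -0.08 to -0.02. The count of 32 fell to 7 without re-fed control ASO 1, to 9 without re-fed PLIN5 ASO 2, to 13 without re-fed PLIN5 ASO 1 or re-fed control ASO 5, to 16 without re-fed control ASO 2 and to 20 without fasted control ASO 3, and was 35 without re-fed control ASO 4. Calls over all genes moved too: 183 in the main fit became 45 without re-fed PLIN5 ASO 2 and 341 without re-fed control ASO 4. The member counts are therefore not a measure of the members alone. The median log2 fold change of the 80 genes stayed between 0.25 and 0.35 in all 19 such fits. Rpl15, Rpl31, Rpl35, Rpl35a, Rps18, Rps24 and Rps25 were called in each of them.

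The fit chosen mattered as well. With only the re-fed libraries in the fit, 0 of the 80 genes were called, as were 0% of all genes in the higher direction, while the median log2 fold change was 0.32. Without the 4 clock-shifted libraries, which leaves 3 re-fed control ASO libraries, 7 were called (Rpl28, Rpl32, Rpl35, Rps18, Rps24, Rps25 and Rps28) against 0.143% of all genes, with a median of 0.36. DESeq2 called 43 against 2.53% of all genes, and limma on log2(FPKM + 1) called 30 against 1.26%.

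Short transcripts in general were higher in re-fed PLIN5 ASO liver. Across the 12805 tested genes of known length, the Spearman correlation of length and log2 fold change was -0.31 in this comparison, as a description over genes that are not independent. The ribosomal protein genes are short: 63 of the 80 have an annotated transcript of at most 1000 nt, and their median is 738 nt, against 2434 nt for the genes tested. For other tested genes up to 1000 nt the median was 0.13 on the log2 scale, with 35 of 1582 called higher, and the 77 genes of mitochondrial ribosomal proteins, which form a separate ribosome, had a median of 0.17 with 0 called (36 of the 77 had an unadjusted p under 0.05, against 2527 of the 13293 genes tested). When each library's trend with length was taken out, the median of the 80 genes was 0.185, against -0.00218 over all genes, and 3 were called, against 0.203% of all genes. These were Rpl31 (0.41 ± 0.08, adjusted p = 0.0394), Rps25 (0.33 ± 0.07, adjusted p = 0.0422) and Rpl22 (0.28 ± 0.06, adjusted p = 0.0453), with Rps24 next at an adjusted p of 0.0501. Within the 80 genes, the log2 medians were 0.34 up to 600 nt, with 12 of 26 called, 0.34 above 600 and up to 1000 nt, with 17 of 37, and 0.24 over 1000 nt, with 3 of 17. A length balance that differs between the re-fed groups and a change of these genes cannot be told apart beyond this. Length was the lower median over a gene's annotated protein-coding transcripts, so Rps15a, at 5130 nt, and Rps20, at 3706 nt, are in the class over 1000 nt. Which transcripts were expressed was not tested, so the length classes and the length trend are approximate.

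**Figure D3:**
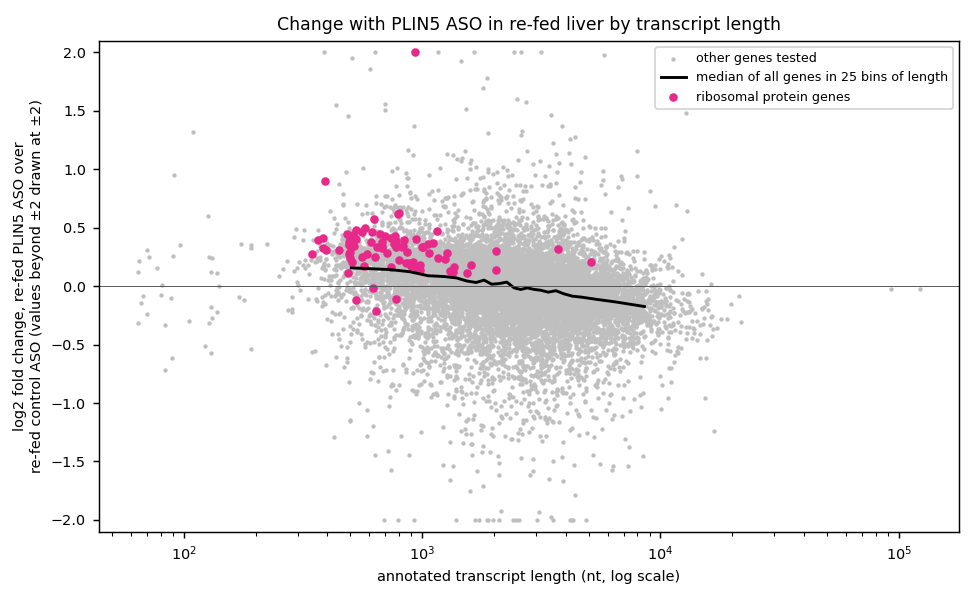
Log2 fold change of re-fed PLIN5 ASO over re-fed control ASO against annotated transcript length (log scale) for the 80 ribosomal protein genes (pink), the other tested genes (grey) and the median of all genes in 25 bins of length (black line). The black line slopes down with length, and most pink points lie above it.

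**Figure D4:**
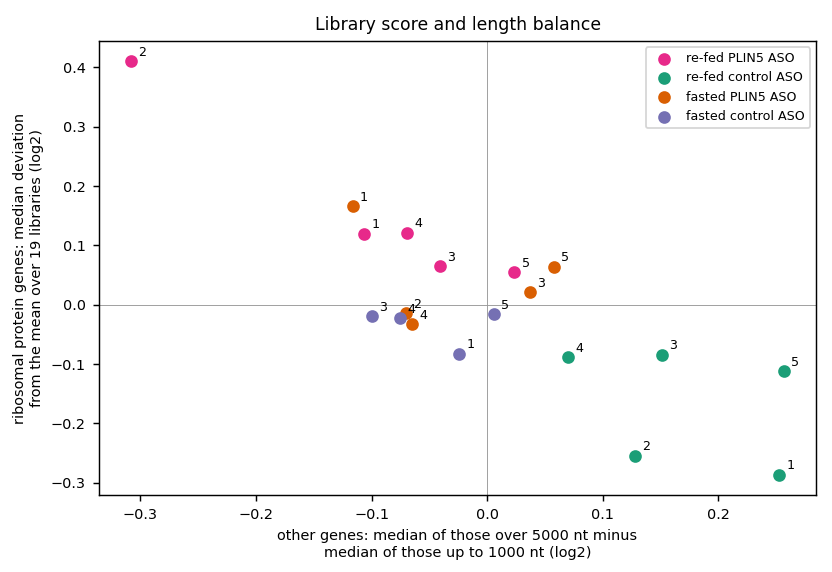
Each library's median deviation of the 80 ribosomal protein genes (vertical, log2) against its balance of long and short other genes (horizontal, log2), coloured by group and labelled with the library number. The re-fed control ASO libraries lie at the lower right, re-fed PLIN5 ASO 2 alone at the upper left, and the fasted libraries in between.

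Of the cell-type markers, 1 of hepatocytes and 1 of endothelium were called in this comparison, in which 1.38% of all genes tested were called. The sums of hepatocyte and of endothelial markers overlapped between the groups, for hepatocytes only through re-fed PLIN5 ASO 5, at 101701 CPM. The 7 hepatocyte markers summed to 101701 to 147084 CPM in re-fed PLIN5 ASO liver and 85153 to 107419 CPM in re-fed control ASO liver. Of the 7, 4 had positive and 3 negative values, with a median log2 fold change of 0.05, and 1, Ttr, was called higher (0.39). An unadjusted p under 0.05 was found for 4 of the 7, against 2527 of the 13293 genes tested. The 8 endothelial markers summed to 121 to 181 CPM with PLIN5 ASO and 124 to 213 CPM with control ASO, with Kdr lower (-1.06, adjusted p = 0.0348) and the other 7 not called. Values were negative for 7 of the 8, with a median of -0.25. Re-fed PLIN5 ASO 2 had the highest hepatocyte sum of its group (147084 CPM) and the lowest endothelial (121 CPM) and macrophage (127 CPM) sums. None of the macrophage, lymphocyte, neutrophil, stellate or cholangiocyte markers was called, and none of the markers in the table was at 0 in all libraries. Their part in the result was not tested, and in whole liver fewer cells of a type and less RNA per cell cannot be told apart.

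The genes called were also split by pyrimidine run and by unique share, as a description with no test. With a run of at least 8 bases anywhere in a start window, as for Rpl15, Rpl35 and Rps18 above, 13 of 32 genes were called. Their median log2 fold change was 0.33. Without one, as for Rpl22, 13 of 27 were called with the same median of 0.33. Of the 21 without a listed start 6 were called, with 0.30. A run can lie wholly before the start, as in Rps25 and Rpl31, so this is not a split by TOP motif. Genes with under 25% unique 50-base stretches had 9 of 24 called, those with 25% to 75% had 21 of 44 and those over 75% had 2 of 12, with medians of 0.28, 0.34 and 0.25. The unique share was counted on the annotated transcript of the length used above, so Rps15a (93.9%) and Rps20 (92.4%) are among those over 75%.

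In fasted liver, 1 of the 80 genes was called with PLIN5 ASO, against 1.17% of all genes in either direction and 0.602% higher. It was Rpl22l1, the paralog of Rpl22 that can replace it in the large subunit. Rpl22l1 was at 14.2, 11.7, 16.6, 10.6 and 13.9 CPM in fasted PLIN5 ASO liver and at 9.34, 7.58, 7.71 and 9.06 CPM in fasted control ASO liver. The groups did not overlap (log2 fold change 0.67 ± 0.14, adjusted p = 0.0258). This call was lost when fasted PLIN5 ASO 3 or 5 or any of the 4 control libraries was left out (adjusted p 0.0513 to 0.0783), with the fasted libraries alone (0.0502) and without the clock-shifted libraries (log2 fold change 0.53, adjusted p = 0.0991). Of the other members 64 had positive values; the median over all 80 was 0.09, against 0.01 over all genes. Rps24 was at 239 to 289 CPM with PLIN5 ASO and at 214 to 229 CPM with control ASO, without overlap, but did not pass (0.27 ± 0.09, adjusted p = 0.137). Rpl22l1, Rps24 and Rpl32 were the 3 members whose PLIN5 ASO libraries all lay above the controls, which held for 2.87% of all genes; none lay wholly below, as 4.26% did. Some markers of macrophages and stellate cells were called higher in this comparison: 2 of 10 macrophage markers (C1qa and C1qb) and 3 of 8 stellate and fibroblast markers (Col1a2, Col3a1 and Lum). The macrophage sum was highest in the clock-shifted fasted PLIN5 ASO 3 and 5, at 439 and 305 CPM, against 147 to 177 CPM in fasted control ASO. Fasted PLIN5 ASO 1, 2 and 4 had 188, 169 and 217 CPM. The part of these markers in the Rpl22l1 value was not tested.

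The difference between the ASO effects in re-fed and in fasted liver was tested as an interaction. None of the 80 genes passed by edgeR (0.0226% of all genes did, 0.015% with a positive and 0.00752% with a negative value). Of the 80, 34 had an unadjusted p under 0.05, against 1991 of 13293 genes tested. DESeq2 called 1 of the 80, but it also called more of all genes than edgeR did, as given in the last section. The effect was more positive in re-fed liver for 71 of the 80, with a median of 0.24, which was 0.12 with the length trend taken out. The same held for 72 of the 77 mitochondrial ribosomal protein genes, with a median of 0.21. It also held for 1016 of the 1582 other tested genes up to 1000 nt, with a median of 0.13. A difference between fasted and re-fed liver in the response of single members was therefore not detected by this test. Among the 80, the smallest adjusted p was that of Rpl22l1 (-0.79 ± 0.19, adjusted p = 0.15), and it is also the gene that DESeq2 called (adjusted p = 0.02).

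**Figure D5:**
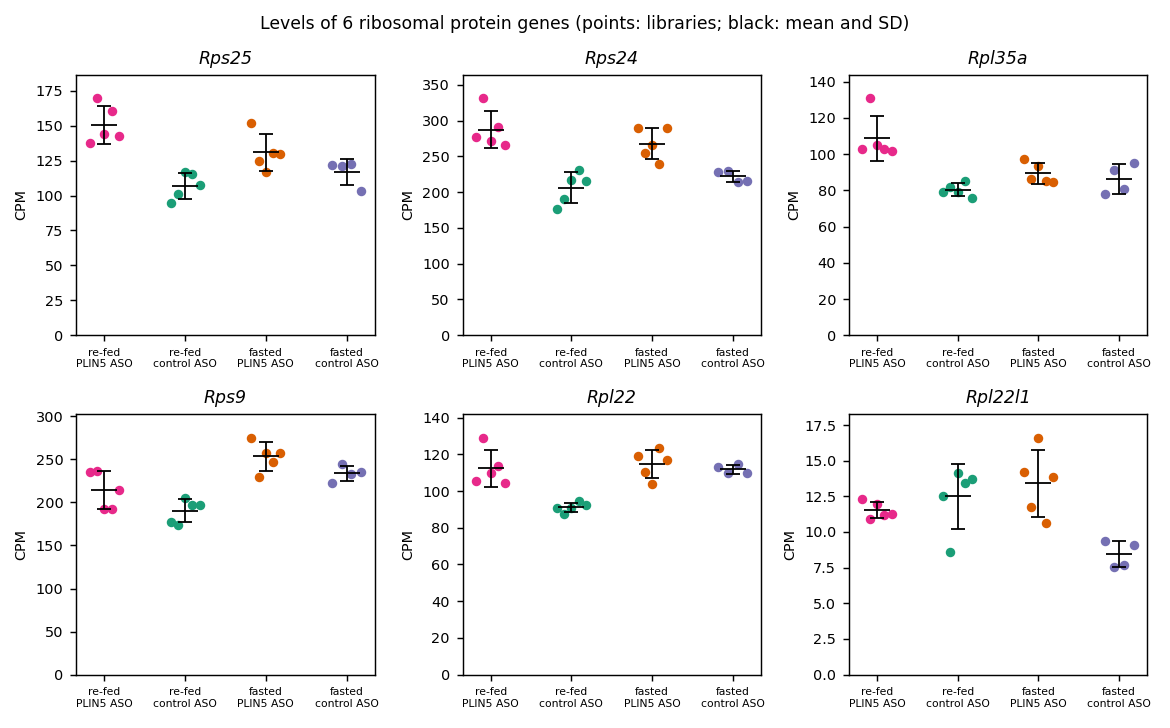
CPM of 6 ribosomal protein genes in each library (points) by group, with the mean and SD of each group (black); axes start at 0. Rps25, Rps24 and Rpl35a are highest in re-fed PLIN5 ASO liver, Rpl22 is lowest in re-fed control ASO liver, and Rpl22l1 is lowest in fasted control ASO liver.

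Rpl22 and Rpl22l1 are given as a pair because, in mouse, the Rpl22 protein is known to hold down Rpl22l1 RNA. Rpl22 was at 105, 129, 110, 114 and 104 CPM in re-fed PLIN5 ASO liver and at 90.8, 87.8, 90.9, 94.6 and 92.2 CPM in control ASO liver after re-feeding. In fasted liver it was at 119, 110, 104, 123 and 117 CPM with PLIN5 ASO and at 113, 110, 115 and 110 CPM with control ASO. The re-fed control ASO libraries were thus below the other 3 groups. Rpl22l1 was at 12.3, 10.9, 11.9, 11.2 and 11.2 CPM in re-fed PLIN5 ASO liver and at 12.5, 8.60, 14.2, 13.5 and 13.7 CPM in control ASO liver after re-feeding, which overlap, and its low group was fasted control ASO. With re-feeding under control ASO, Rpl22 fell and Rpl22l1 rose (log2 fold changes -0.29 and 0.57). With PLIN5 ASO in re-fed liver Rpl22 rose and Rpl22l1 had -0.12 (adjusted p = 0.656); with PLIN5 ASO in fasted liver Rpl22l1 rose and Rpl22 had 0.04 (adjusted p = 0.855). Of all 80 genes, Rpl22 is 1 of the 12 with more than 75% unique stretches (94.8%), and Rpl22l1 has 38.5%.

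With re-feeding under control ASO, 1 of the 80 genes was called higher and 5 lower, against 6.42% and 6.82% of all genes tested. In the main fit the members' share called, 7.5%, was below the 13.2% of all genes. This order was not kept in every fit, as given below. The median log2 fold change was -0.11, against 0.03 over all genes. Values were negative for 67 of the 80, against 6206 of the 13293 genes tested. In 17 of the 80 every re-fed library was below every fasted one, as in 9.12% of all genes, and in none was it above, as in 7.15%. This was not particular to these genes. Of the 77 mitochondrial ribosomal protein genes 24.7% lay wholly below, with a median of -0.13 and 10 called lower. Of other tested genes up to 1000 nt 14.8% did, with a median of -0.075. Length and log2 fold change had a Spearman correlation of 0.199 here. The 5 members that fell were Rps14, Rps9, Rpl22, Rps10 and Rps3a1, 4 of them in the small subunit. Rps14, a protein of the platform of the small subunit, was at 130, 145, 146, 136 and 132 CPM in control ASO liver after re-feeding and at 164, 184, 183 and 182 CPM in fasted control ASO liver, a difference of -0.37 ± 0.10 on the log2 scale (adjusted p = 0.0168). Rps9 was at 178, 174, 205, 198 and 197 CPM re-fed and at 223, 244, 233 and 235 CPM fasted (-0.30 ± 0.08, adjusted p = 0.0173). In both genes every re-fed library was below every fasted one. Rps10, a protein of the head of the small subunit, fell to 63.4 ± 4.53 CPM re-fed (n = 5), against 75.9 ± 2.59 CPM fasted (SD, n = 4; adjusted p = 0.0398). This call was lost in 15 of 31 alternatives. Rps3a1 fell to 144 ± 11.4 CPM re-fed, against 172 ± 5.95 CPM fasted (adjusted p = 0.0251). Rpl22l1, the 1 gene that rose, had 12.5 ± 2.26 CPM re-fed and 8.42 ± 0.908 CPM fasted (0.57 ± 0.14, adjusted p = 0.0109; 0.0601 without the clock-shifted libraries). Without the clock-shifted libraries Rps14 (0.0601) and Rps10 (0.0799) were not called either. The calls of Rps14 and Rps9 were also lost without fasted control ASO 3 (0.0511 and 0.0599), and that of Rps9 with the length trend taken out (0.0821). The count of 6 was 2 without fasted control ASO 3, 15 without re-fed PLIN5 ASO 2, 3 without the clock-shifted libraries, 3 with the length trend taken out and 11 with only the groups compared in the fit. All genes called, 1759 in the main fit, were 1112 without fasted control ASO 3 and 2014 without re-fed PLIN5 ASO 2. In the fit without re-fed PLIN5 ASO 2 the members' share called was above that of all genes. This comparison and the ASO comparison in re-fed liver share the 5 re-fed control ASO libraries, so their values are not independent: Rps14 had 0.45 there, Rpl22 0.30, Rps10 0.33 and Rps9 0.17, the last not called.

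Under PLIN5 ASO, re-feeding raised 3 of the 80 genes and lowered 1, against 4.5% and 4.14% of all genes (8.64% in all). The median log2 fold change was 0.11, against 0.00107 over all genes. It was 0.10 for the 77 mitochondrial ribosomal protein genes and 0.03 for other tested genes up to 1000 nt. Rpl35a rose to 108.7 ± 12.4 CPM re-fed, against 89.4 ± 5.78 CPM fasted (SD, n = 5 each; 0.28 ± 0.08, adjusted p = 0.0282), and its groups did not overlap; Rpl10, Rpl35a and Rps12 were the 3 members with no overlap upwards (3.94% of all genes), and none had it downwards (3.63%). Rpl31 rose to 36.8 ± 6.87 CPM, against 28.6 ± 1.88 CPM (0.36 ± 0.11, adjusted p = 0.0426). Rps9 fell to 214 ± 21.7 CPM re-fed, against 253 ± 16.6 CPM fasted (-0.24 ± 0.07, adjusted p = 0.049), the only member called lower after re-feeding under both ASOs. These calls were close to the threshold. Rpl31 and Rps9 each lost theirs in 17 of 31 alternatives, among them the one without a filter on low counts (adjusted p = 0.0527 and 0.0678). Rpl35a lost its call in 6 of 31. Rps23 was at 0.493, 1.22, 0.724, 0.765 and 10.9 CPM re-fed and at 0.566, 0.358, 0.649, 0.386 and 0.768 CPM fasted. Its call (log2 fold change 2.42 ± 0.68, adjusted p = 0.0322) rests on re-fed PLIN5 ASO 5, the deepest library: without it the log2 fold change was 0.54 (adjusted p = 0.359). That library was also apart in the deposited FPKM, with 25.5 FPKM against 0.366 to 1.69 FPKM in the other 4. The count of 4 was 0 without fasted PLIN5 ASO 5, 1 without fasted PLIN5 ASO 1, 2, 3 or 4, 2 without re-fed PLIN5 ASO 2 or 4 or fasted control ASO 4 or 5, and 0 without the clock-shifted libraries or with only the groups compared. Without fasted PLIN5 ASO 4 the 1 gene called was Rps27l (adjusted p = 0.0373), and none of the 4 reported genes kept its call.

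Genes that work with the ribosome gave a background for these values. Of 22 tested TOP translation factors and ribosome-associated proteins, 3 were higher with PLIN5 ASO in re-fed liver, against 0.812% of all genes: Fau, which encodes a small subunit protein as a ubiquitin-like fusion (log2 fold change 0.48), the initiation factor subunit Eif3k (0.44) and Naca of the nascent chain complex (0.28). Fau was at 140, 181, 127, 120 and 115 CPM in re-fed PLIN5 ASO liver, against 88.8, 97.1, 103, 112 and 89.9 CPM in re-fed control ASO liver, without overlap. The elongation factors Eef1a1 and Eef2 had 0.16 and 0.03 (adjusted p = 0.189 and 0.87). The median of the 22 was 0.16, and 20 of them had positive values. In 11 of the 22 every re-fed PLIN5 ASO library was above every re-fed control ASO library, as in 2.48% of all genes. An unadjusted p under 0.05 was found for 14 of the 22. Of 21 genes that control TOP mRNAs 1 was called: Eif4ebp1, the translation repressor 4E-BP1 that mTORC1 inactivates, rose to 67.3 ± 8.59 CPM with PLIN5 ASO, against 48.7 ± 4.04 CPM with control ASO (0.47 ± 0.08, adjusted p = 0.0126). Mtor, Larp1 and Rps6kb1 had 0.07, -0.24 and -0.04 and did not pass. None of 39 ribosome biogenesis genes, 15 genes of RNA polymerase I and its factors and 15 of ribosome quality control was called in this comparison by edgeR; 7, 4 and 3 of them had an unadjusted p under 0.05, as did 2527 of the 13293 genes tested.

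In fasted liver none of these 5 lists held a gene called by edgeR with PLIN5 ASO, against 1.17% of all genes. An unadjusted p under 0.05 was found for 2 of the TOP translation factors, 2 of the TOP control genes and 4 of the biogenesis genes. It was also found for 3 of the RNA polymerase I genes and 0 of the quality control genes, against 2003 of the 13293 genes tested. Under control ASO, re-feeding lowered 9 of the 22 TOP translation factors and raised none, against 6.82% of all genes lower. Eif4b, a cofactor of the initiation helicase, had the largest fall, to 253 ± 29.3 CPM re-fed, against 378 ± 9.13 CPM fasted (-0.58 ± 0.11, adjusted p = 0.00151), and Fau, Naca, Npm1, Eef1d, Eef2, Eif3k, Eef1a1 and Btf3 fell by 0.20 to 0.44 on the log2 scale. Of the 39 biogenesis genes 5 rose (Tsr1, Nolc1, Heatr1, Utp20 and Nop58, by 0.38 to 0.62), against 6.42% of all genes higher. Fbl, the rRNA methyltransferase fibrillarin, fell (-0.36). Under PLIN5 ASO, 10 of the 39 rose with re-feeding and none fell, against 4.5% of all genes higher and 4.14% lower. They were Ppan, Nop56, Rrp9, Bysl, Utp15, Mybbp1a, Nop58, Rrs1, Heatr1 and Dnttip2, with log2 fold changes of 0.21 to 0.61. Of the 22 TOP factors, 2 (Npm1 and Nap1l1) fell. Whether the lists responded differently under the 2 ASOs was tested gene by gene as the interaction, in which none of their members was called by edgeR.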

How the data were processed

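RNA-seq of total RNA from 19 mouse liver libraries was analysed from 2 tables of the whole series. The authors deposited read counts per gene and FPKM values; per the submitters' processing notes, their tools included FastQC, HISAT2 2.0.2, Cuffdiff 2.2.1, Subread and edgeR, with the builds mm10 and GRCm38. The sources used here do not state the annotation, the strand setting or the treatment of reads with several matches. The deposited counts, 24942147 to 66862784 per library, were tested with edgeR 4.0.16 in R 4.3.3: TMM scaling, a filter with a minimum count of 10, 1 quasi-likelihood fit of all 19 libraries and Benjamini-Hochberg adjustment over 13293 genes, called at an adjusted p under 0.05. DESeq2 1.42.0, and limma 3.58.1 on the log2 FPKM with pseudocounts of 1 and 0.1, were alternatives; scripts were tested on simulated data. Lengths are from GENCODE M21 (GRCm38) and start windows from RefSeq (GRCm38.p6). The length trend was taken out as offsets over 25 bins of length.

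The text names, per comparison, the 4 largest rises and falls among called members with at least 2 CPM in a group, a set list of members with known roles, and up to 4 genes per other list with the smallest p. Other named genes, among them Rpl35, Rps18, Rpl18 and Rpl9, were chosen after their values were seen. Members and lists were chosen with earlier results of these data known. Replicate numbers were not used to pair the libraries in the main fit, because the labels do not say what they mark. Single values of 2 genes are not reported here; both stay in the counts.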

Additional observations from a re-analysis of the deposited data

Results flagged for a closer look

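Among 128 groups of 4 or 5 libraries, which are the 4 study groups for each of 31 named members and for the members' summed share of counts, there were 10 in which 1 library lay far from the others of its group, where chance alone gives about 1 in 20. Re-fed PLIN5 ASO 2 was that library for 4 genes: Rpl35a at 131 CPM (the others at 102 to 105 CPM), Rpl13a at 371 CPM (271 to 294 CPM), Rplp2 at 143 CPM (107 to 117 CPM) and Rps27l at 158 CPM (101 to 110 CPM). Re-fed PLIN5 ASO 5 held Rps23 at 10.9 CPM (0.493 to 1.22 CPM). In re-fed control ASO, library 2 held Rpl22l1 at 8.6 CPM (12.5 to 14.2 CPM) and library 4 held Rps27a at 11.5 CPM (3.02 to 4.65 CPM). In fasted control ASO, library 1 was low for Rpl10 at 110 CPM (123 to 124 CPM) and Rps14 at 164 CPM (182 to 184 CPM), and library 5 was low for Rps25 at 103 CPM (121 to 122 CPM). The causes were not tested.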

How the results depend on the processing

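Direction was checked for the 155 results for single named members, and none called in the report or under an alternative changed its direction. Genes of the other lists, such as Fau and Eif4ebp1, were not part of this check. Of 155 results for single named genes, 43 that were not called changed sign under at least 1 alternative, among them Rps27 in the fasted ASO comparison (log2 fold change -0.25, with a range of -0.37 to 0.40). Over the named genes and alternatives 4612 values stayed on their side of the threshold, 138 lost their call and 14 gained one. Of the 80 ribosomal protein genes, those called with only the groups compared in the fit were 0 in the fasted ASO comparison (1 in the report), 0 in the re-fed ASO comparison (32), 11 in control ASO liver with re-feeding (6) and 0 in PLIN5 ASO liver (4); all genes called in the re-fed ASO comparison were then 4 (183). Without the 4 clock-shifted libraries they were 0, 7, 3 and 0 in that order, and all genes called were 45 in the re-fed ASO comparison and 1167 with re-feeding under control ASO (1759). With the length trend taken out they were 3 in the re-fed ASO comparison and 3 with re-feeding under control ASO, the medians were 0.185 for the re-fed ASO comparison (0.322) and 0.117 for the interaction (0.24), and all genes called were 55 and 0 (3) in these. Re-feeding under PLIN5 ASO called 2 members without a filter on low counts and 2 with limma on FPKM without one, which called 0 members and 70 genes in the fasted ASO comparison (156). With fasted control ASO 3 and 4 as 1 sample, the fasted ASO comparison called 0 members and 36 genes, re-feeding under control ASO 1139 genes and the interaction 0. DESeq2 called 432, 612 and 95 genes in the fasted ASO, re-fed ASO and interaction comparisons, with 1 member in the last (0). The interaction called 0 genes without a filter and with limma at either pseudocount. Same-numbered libraries correlated at -0.197 to 0.157 after each group was centred. That cannot settle whether a number marks a shared animal or day, which the labels do not say. A replicate block called 2 members with re-feeding under PLIN5 ASO. It called 253, 290 and 1 genes in the fasted ASO, re-fed ASO and interaction comparisons. Leaving out 1 library at a time, the members called ranged from 0 to 1 (fasted ASO), 7 to 35 (re-fed ASO), 2 to 15 (re-feeding, control ASO), 0 to 4 (re-feeding, PLIN5 ASO) and 0 to 0 (interaction); their medians from 0.0572 to 0.109, 0.249 to 0.347, -0.136 to -0.0928, 0.0378 to 0.143 and 0.162 to 0.265; and all genes called from 22 to 188, 45 to 341, 1112 to 2014, 741 to 1232 and 0 to 3. The cause of these shifts was not tested, beyond the fewer libraries or genes that some settings hold by construction. Counting error limits the 7 members under 10 CPM most.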
